A study of Mus musculus with 6 samples.

Results

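The mRNAs of 10 enzymes of mitochondrial fatty acid oxidation, chosen by gene name, were examined in MLE12 cells that had received shRNA against *Idh3α* and *Slc25a1*. They were the carnitine transferases *Cpt1a* and *Cpt2*, the acyl-CoA dehydrogenases *Acadvl*, *Acadl* and *Acadm*, the trifunctional protein subunits *Hadha* and *Hadhb*, the thiolase *Acaa2*, and the electron transfer genes *Etfa* and *Etfdh*. All 10 were present among the 54532 genes of the count table, each with a single entry, and all 10 had enough counts to be tested. None was called higher or lower in knockdown cells by edgeR or DESeq2. limma with sample quality weights called *Acaa2* lower, in a fit that called 6.34% of all genes lower. With all libraries, 9 of the 10 had a fitted value below that of control cells, by at most 0.55 on the log2 scale. Of all genes tested, 51.3% had a value below that of control cells. Only 4 of the 10 did when libraries were scaled by total count alone. That scaling also moved the median log2 fold change of all genes from -0.01 to 0.16.

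In fatty acid oxidation, long-chain fatty acids are linked to carnitine to enter the mitochondrion and are then shortened in repeated rounds of dehydrogenation, hydration, a second dehydrogenation and thiolysis, each round releasing acetyl-CoA. The electrons of the first dehydrogenation pass through electron transfer flavoprotein to the ubiquinone pool of the respiratory chain. The acetyl-CoA feeds citrate synthesis, and citrate is the metabolite that IDH3 uses, by way of isocitrate, and that Slc25a1 carries to the cytosol. Cytosolic citrate is in turn a source of malonyl-CoA, the classical inhibitor of CPT1. Alveolar type 2 cells, which make lipid-rich surfactant, both synthesize and oxidize fatty acids.

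MLE12 is an established line of mouse lung epithelial cells, derived from tumours driven by a viral oncogene under a surfactant protein C promoter. The labels give its strain as C57BL/6J. In the Ctrl shRNA group (3 samples), cells were infected with lentivirus carrying an empty construct. The group called knockdown here (3 samples) was infected at the same time with an Idh3α-silencing and an Slc25a1-silencing lentivirus. Each lentivirus, the control one included, was added at an MOI of 50, that is, 50 infectious particles per cell. Knockdown cells received a pair of viruses, and no source used here states that the total was matched in control cells, so a difference in total virus cannot be told apart from the knockdown itself. The medium was changed after 16 h and culture went on for another 80 h. The labels do not say whether the samples of a group were separate cultures, so p-values measure the spread between these samples, which may be technical. In bulk RNA, fewer cells of a kind and less RNA per cell cannot be told apart.

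Library totals lay between 27273502 and 28535653 counts. Both targeted mRNAs were lower in each knockdown library than in each control, *Idh3α* at 55.5 to 58.5 against 79.8 to 137 CPM and *Slc25a1* at 63.0 to 69.6 against 98.7 to 108 CPM (counts scaled to a common library size with TMM factors). Neither passed adjustment with all libraries (adjusted p = 0.254 for *Idh3α* and 0.104 for *Slc25a1*, edgeR), and both did without Ctrl shRNA replicate 2 (log2 fold change -0.60 and -0.66, adjusted p = 0.0142 and 0.00649). Of the cell type markers, the lung epithelial factor *Nkx2-1* had 6397 to 10615 counts per library and the keratin *Krt8* 4591 to 8647, while *Krt18* had no more than 16 and *Epcam* 71 to 124. The leukocyte gene *Ptprc* had 0 counts in all libraries. The endothelial gene *Cdh5* had at most 1 count, whereas *Dcn*, listed as a fibroblast marker, had 8830 to 23920. Ctrl shRNA replicate 2 stood apart from the other libraries. It had 16681 genes with a count against 19902 to 23147, its 100 most abundant genes held 27.2% of counts against 12.6% to 12.9%, and mitochondrially encoded genes held 6.49% against 1.57% to 1.80%. Differences of the 10 enzymes are therefore given with and without that library, and the part of these library properties in the results was not tested.

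Promoter sequence was available for 9 of the 10 genes, as RefSeq windows of 300 bases on GRCm38.p6, 250 before and 50 after each transcription start. These windows were rich in CpG, with 9 to 34 CpG per window and a median of 20, against a median of 7 over all 32851 windows. Letters were searched on both strands. The GC box GGGCGG was present in 6 of the 9 windows (35.7% of all windows), CCAAT in 3 (37.4%) and TATAAA in 0 (13.6%). The windows of *Hadha* and *Hadhb*, whose starts lie 273 bases apart, overlap. The only GC box of the *Hadha* window, at -188, is the same site as that of *Hadhb* at -90, so these 2 windows are not separate. The element AGGTCA, which nuclear receptors such as the PPARs and estrogen-related receptors can bind, was present in 3, those of *Acadm*, *Acadvl* and *Cpt1a* (16.3%). Its extended form AAGGTCA, which overlaps it, was present in 1, that of *Acadm* (4.72%). The direct repeat AGGTCANAGGTCA was in none of the 9 (0.0396%), the CACGTG box in none (7.15%), and the NRF1 palindrome in 1, that of *Etfdh* (0.971%). A match is only a description of these letters. The 3 stretches printed here are the gap between *Hadha* and *Hadhb*, which are transcribed away from each other, the upstream bases of *Etfa*, the gene with the largest fitted difference, and those of *Acadm*, which hold the AAGGTCA match. Capitals mark matches, on either strand, to the GC box, to the CCAAT box or to the nuclear receptor element AGGTCA, and each stretch is written 5′ to 3′. None overlaps an annotated exon.
Between Hadha and Hadhb, chr5:30155163-30155247, plus strand, 85 bases: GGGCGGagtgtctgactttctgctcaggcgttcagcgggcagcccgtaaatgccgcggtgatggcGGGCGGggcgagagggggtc
Upstream of Etfa, chr9:55512244-55512493, minus strand, 250 bases: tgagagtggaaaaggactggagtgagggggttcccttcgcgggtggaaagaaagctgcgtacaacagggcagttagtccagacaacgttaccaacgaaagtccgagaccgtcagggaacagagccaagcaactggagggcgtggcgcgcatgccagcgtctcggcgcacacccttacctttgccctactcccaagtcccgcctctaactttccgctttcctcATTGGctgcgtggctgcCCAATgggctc
Upstream of Acadm, chr3:153944644-153944893, minus strand, 250 bases: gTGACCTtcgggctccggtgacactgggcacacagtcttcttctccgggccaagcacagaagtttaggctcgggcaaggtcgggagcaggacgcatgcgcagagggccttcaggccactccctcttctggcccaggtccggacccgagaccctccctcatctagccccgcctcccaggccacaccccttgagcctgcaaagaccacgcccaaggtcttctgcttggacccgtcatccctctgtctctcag
The *Etfa* stretch carried a CCAAT match on each strand close to the start, beginning at positions -28 and -11 from it, and no GGGCGG. The *Acadm* stretch carried its single capitalized match at the far end, at position -249 from the start. The stretch between *Hadha* and *Hadhb* carried 2 GGGCGG matches, the first at its *Hadha* end.

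The levels of the 10 mRNAs were first compared with each other, per length of transcript. FPKM values of the authors were used, which scale counts to gene length and library size. In knockdown cells *Etfa* was the most abundant at 64.19 ± 4.401 FPKM (SD, n = 3), followed by *Acadl* at 56.2 ± 5.22 and *Acaa2* at 49.8 ± 1.11 FPKM. *Etfa* and *Acadl* overlapped in knockdown cells but not in the controls, whereas *Acadl* and *Acaa2* overlapped in the controls but not in knockdown cells. A middle group of *Acadvl*, *Cpt1a* and *Hadha*, at 21.8 ± 2.61, 20.7 ± 1.21 and 19.6 ± 0.646 FPKM, overlapped from each gene to the next. *Cpt2* followed at 11.2 ± 0.813 FPKM and *Etfdh* at 7.75 ± 0.382 FPKM, and *Etfdh* overlapped with *Hadhb* in the controls but not in knockdown cells. *Hadhb* at 6.31 ± 0.283 and *Acadm* at 6.22 ± 0.271 FPKM were lowest and overlapped (SD, n = 3 in each case). The length the authors divided by equalled that of all exons annotated in GENCODE for each member except *Acaa2* and *Cpt1a*, and for *Hadhb* and *Etfdh* it was 3.22 and 3.16 times that of the principal transcript in GENCODE, against 0.996 times for *Cpt1a*. Per kilobase of principal transcript, *Etfa*, *Acadl* and *Acaa2* stayed at ranks 1, 2 and 3, but *Hadha* moved from rank 6 to rank 4 and *Cpt2* from rank 7 to rank 10. The order of the lower 7 genes thus depended on the gene model. Together the 10 genes held 0.0798% to 0.0849% of counts in knockdown libraries, 0.0890% and 0.0905% in Ctrl shRNA replicates 3 and 1, and 0.0708% in Ctrl shRNA replicate 2.

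**Figure D1:**
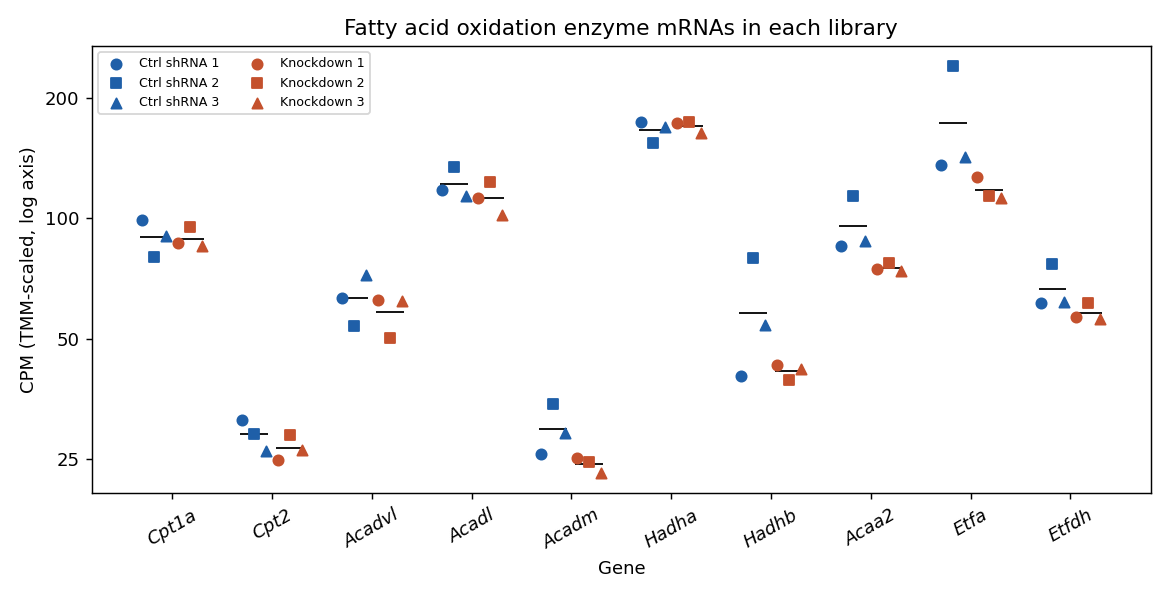
CPM of the 10 genes (log axis) in each library, with Ctrl shRNA in blue, knockdown in orange, a marker shape for each replicate number and a black line at each group mean (n = 3). The blue squares of Ctrl shRNA replicate 2 lie above all other points for *Acadl*, *Acadm*, *Hadhb* (79.8 CPM), *Acaa2*, *Etfa* (240 CPM) and *Etfdh*. They lie below all others for *Cpt1a* (80.2 CPM) and *Hadha* (154 CPM).

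The question of the comparison was whether these mRNAs differed after combined knockdown of *Idh3α* and *Slc25a1*. The 15307 genes tested were adjusted together by the Benjamini-Hochberg method in edgeR's quasi-likelihood framework, and genes with an adjusted p under 0.05 were called. None of the 10 was called, where 0.0653% of all genes were (0.0588% higher and 0.00653% lower). At an unadjusted p under 0.05, 2 of the 10 were lower (*Acaa2* and *Etfa*) and 0 higher, against 6.65% and 7.47% of all genes and 14.1% in either direction. DESeq2 called 0 of the 10, where 2.51% of genes were called and 0.958% lower. limma with sample quality weights called 1 of the 10 lower, *Acaa2*, where 15% of genes were called and 6.34% lower. When Ctrl shRNA replicate 2 was left out, edgeR called 0 of the 10, where 1.79% of 15709 genes were called. In that fit *Acaa2* and *Etfa* were again the 2 lower genes at an unadjusted p under 0.05, against 10.3% of all genes lower, 9.54% higher and 19.9% in either direction. DESeq2 without that library also called 0 of the 10 (6.58% of genes called, 2.65% lower). The median fitted log2 fold change (or log2 difference) of the 10, knockdown over control, was -0.16 with all libraries, beside -0.01 over all genes tested. In the fit without Ctrl shRNA replicate 2 it was -0.15 beside -0.02. With all libraries 9 of the 10 fitted values were below 0 (51.3% of all genes), and without Ctrl shRNA replicate 2 all 10 were (52.7%). When all libraries were scaled by total count alone, the median of all genes moved to 0.16, that of the 10 genes to 0.02, and only 4 of the 10 values were below 0. With total count scaling and Ctrl shRNA replicate 2 left out, all 10 were below 0 again.

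**Figure D2:**
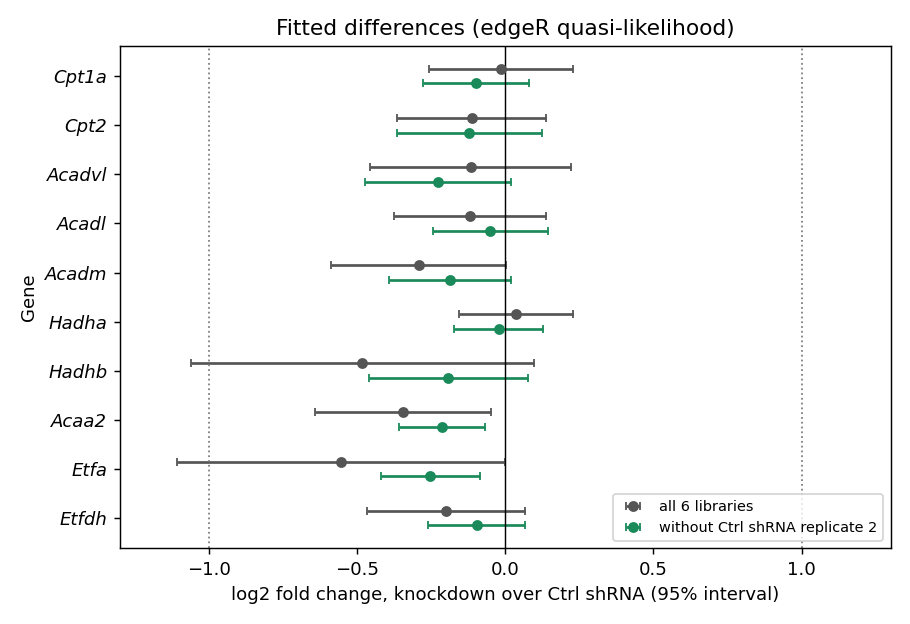
Fitted log2 fold change of each gene, knockdown over Ctrl shRNA, with its 95% interval (edgeR), for all 6 libraries in grey and without Ctrl shRNA replicate 2 in green; dotted lines mark a 2-fold difference. Intervals of *Hadhb* and *Etfa* shrink most when that library is left out, and in green all 10 intervals lie between the dotted lines.

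Of the carnitine shuttle, neither *Cpt1a* nor *Cpt2* separated the groups. *Cpt1a*, which encodes the liver isoform of the rate-limiting transferase of the outer mitochondrial membrane (ENSMUSG00000024900, chromosome 19, 3323301 to 3385732 of GRCm38, plus strand), stood at 98.9, 80.2 and 90.2 CPM in Ctrl shRNA replicates 1, 2 and 3. In knockdown replicates 1, 2 and 3 it stood at 86.9, 94.9 and 85.0 CPM. The groups overlapped, and the mean was 89.8 ± 9.33 CPM in controls and 88.9 ± 5.27 CPM in knockdown cells (SD, n = 3). On the log2 scale the fitted difference was -0.01 ± 0.10 (SE; adjusted p = 0.955, edgeR) and its 95% interval allowed a ratio of 0.838 to 1.17. *Cpt2*, the transferase of the inner membrane that hands the acyl group back to CoA (ENSMUSG00000028607, chromosome 4, 107903981 to 107923610, minus strand), stood at 31.3, 28.95 and 26.2 CPM in controls and at 24.9, 28.7 and 26.4 CPM in knockdown cells. The groups again overlapped, with a log2 difference of -0.11 (SE 0.10, adjusted p = 0.586, edgeR). Without Ctrl shRNA replicate 2 the values were -0.10 for *Cpt1a* and -0.12 for *Cpt2* (adjusted p = 0.515 and 0.567, edgeR).

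The acyl-CoA dehydrogenases carry out the first step of each round, and differ in the chain length they prefer. *Acadvl*, for very long chains (ENSMUSG00000018574, chromosome 11, 70010183 to 70015411, minus strand), stood at 63.3, 53.9 and 72.2 CPM in controls and at 62.6, 50.2 and 61.9 CPM in knockdown cells. With all libraries the groups overlapped, and the log2 difference was -0.12 (SE 0.14, adjusted p = 0.685, edgeR). Without Ctrl shRNA replicate 2 every knockdown value was below both controls, at a log2 difference of -0.23 (SE 0.11, adjusted p = 0.284, edgeR). The gene shares 1151 exonic bases, 42.9% of its exonic length, with *Dvl2* on the opposite strand, and counting is not stated to use strand, so its count is uncertain. *Dvl2* itself had a log2 fold change of 0.06 with all libraries and -0.00033 without Ctrl shRNA replicate 2.

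*Acadl*, for long chains (ENSMUSG00000026003, chromosome 1, 66830839 to 66863277, minus strand), had 117, 135 and 114 CPM in controls and 112, 123 and 102 CPM in knockdown cells. These groups overlapped, and the log2 difference was -0.12 (SE 0.11, adjusted p = 0.578, edgeR), and -0.05 without Ctrl shRNA replicate 2 (adjusted p = 0.782). *Acadm*, for medium chains (ENSMUSG00000062908, chromosome 3, 153922357 to 153944632, minus strand), had 25.8, 34.3 and 29.04 CPM in controls and 25.1, 24.6 and 23.1 CPM in knockdown cells. Every knockdown value was below every control, although knockdown replicate 1 lay close to Ctrl shRNA replicate 1. Its log2 difference was -0.29 (SE 0.12, adjusted p = 0.354, edgeR), and -0.19 without Ctrl shRNA replicate 2 (adjusted p = 0.288). *Acadm* was thus the dehydrogenase with the largest fitted difference with all libraries, and *Acadvl* had it without Ctrl shRNA replicate 2, but the differences between the dehydrogenases were not tested.

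*Hadha* and *Hadhb* encode the alpha and beta subunits of the trifunctional protein, which carries out hydration, the second dehydrogenation and thiolysis of long-chain acyl-CoA at the inner membrane. The genes lie head to head on chromosome 5, *Hadha* (ENSMUSG00000025745) from 30118304 to 30155162 on the minus strand and *Hadhb* (ENSMUSG00000059447) from 30155248 to 30184593 on the plus strand, 85 bases apart in the deposited annotation. *Hadha* had 174, 154 and 169 CPM in controls and 173, 174 and 164 CPM in knockdown cells. Groups overlapped and the log2 difference was 0.04 (SE 0.08, adjusted p = 0.834, edgeR), the only positive value of the 10, and it became -0.02 without Ctrl shRNA replicate 2 (adjusted p = 0.877). *Hadha* shares 75 exonic bases, 0.86% of its exonic length, with *Garem2* on the opposite strand, which stood at 2.82 to 3.95 CPM. *Hadhb* had 40.2, 79.8 and 54.0 CPM in controls and 43.0, 39.5 and 42.0 CPM in knockdown cells. Its controls spread more widely than its knockdown libraries (SD 20.1 against 1.84 CPM), and Ctrl shRNA replicate 1 lay inside the knockdown range. The log2 difference was -0.48 (SE 0.24, adjusted p = 0.377, edgeR) and was -0.19 without Ctrl shRNA replicate 2 (SE 0.12, adjusted p = 0.396).

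The ratio of *Hadha* to *Hadhb* counts, a measure chosen after the values were seen, was 4.33, 1.94 and 3.14 in Ctrl shRNA replicates 1, 2 and 3 and 4.02, 4.41 and 3.90 in the knockdown replicates. It was lowest in Ctrl shRNA replicate 2, and the groups overlapped. The mean was 3.13 ± 1.20 in controls and 4.11 ± 0.271 in knockdown cells (SD, n = 3 each; two-sided exact permutation test on the log2 ratio, p = 0.3, where 0.1 is the smallest p possible). Without Ctrl shRNA replicate 2 the exact permutation p was 0.5.

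*Acaa2*, the mitochondrial ketoacyl-CoA thiolase that cleaves acetyl-CoA from shorter chains (ENSMUSG00000036880, chromosome 18, 74779197 to 74806207, plus strand), had the smallest adjusted p of the 10 with all libraries. It stood at 85.3, 114 and 88.0 CPM in controls and at 74.6, 77.1 and 73.8 CPM in knockdown cells. All knockdown values were below all controls, also when Ctrl shRNA replicate 2 was set aside. The mean was 95.6 ± 15.6 CPM in controls and 75.2 ± 1.75 CPM in knockdown cells (SD, n = 3), a log2 difference of -0.35 (SE 0.12, 95% interval -0.64 to -0.05, adjusted p = 0.341, edgeR). Without Ctrl shRNA replicate 2 the log2 difference was -0.21 (SE 0.06, 95% interval -0.36 to -0.07, adjusted p = 0.135). It passed the threshold only with limma's sample quality weights, at a log2 difference of -0.24 (SE 0.05, adjusted p = 0.0277, Benjamini-Hochberg), and over the alternatives its adjusted p ran from 0.0277 to 0.778.

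*Etfa* and *Etfdh* act beyond the dehydrogenases, *Etfa* as the alpha subunit of electron transfer flavoprotein and *Etfdh* as the enzyme that passes its electrons to ubiquinone. *Etfa* (ENSMUSG00000032314, chromosome 9, 55454508 to 55512243, minus strand) had 136, 240 and 142 CPM in controls and 127, 113 and 112 CPM in knockdown cells. Groups did not overlap, and Ctrl shRNA replicate 2 was 0.79 above the mean of the other controls on the log2 scale. The mean was 173 ± 58.3 CPM in controls and 117 ± 8.05 CPM in knockdown cells (SD, n = 3). The log2 difference was -0.55 (SE 0.23, adjusted p = 0.354, edgeR), the largest of the 10 in size, and -0.25 without Ctrl shRNA replicate 2 (SE 0.07, adjusted p = 0.129). The latter was also the largest of the 10 in that fit.

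*Etfdh* (ENSMUSG00000027809, chromosome 3, 79603788 to 79629500, minus strand) had 61.4, 76.7 and 61.8 CPM in controls and 56.8, 61.3 and 55.9 CPM in knockdown cells. No values overlapped, but knockdown replicate 2 and Ctrl shRNA replicate 1 were nearly equal. The log2 difference was -0.20 (SE 0.11, adjusted p = 0.399, edgeR) and -0.10 without Ctrl shRNA replicate 2 (adjusted p = 0.490). *Etfdh* shares 278 exonic bases, 3.70% of its exonic length, with *4930579G24Rik* on the opposite strand, whose log2 fold change was -0.34 (adjusted p = 0.311, edgeR) with all libraries and -0.39 (adjusted p = 0.0796) without Ctrl shRNA replicate 2.

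Counted over the 10 genes, every knockdown library was below every control in 4, *Acadm*, *Acaa2*, *Etfa* and *Etfdh*, and the reverse in 0. Of all genes tested, 10.7% had all knockdown libraries below all controls, and in 25.4% the groups did not overlap in either direction. For each of these 4 genes the two-sided exact permutation test on log2 CPM gave p = 0.1, the smallest that 3 samples against 3 allow, and for the other 6 genes the exact p was 0.3 to 1. With Ctrl shRNA replicate 2 left out, the same 4 genes and *Acadvl* did not overlap, against 18.8% of all genes with every knockdown library below both controls and 37.8% without overlap in either direction. The intervals show what sizes of difference these libraries leave possible. With all 6 libraries the 95% interval lay within a 2-fold difference for 8 of the 10 genes, the exceptions being *Hadhb*, whose interval reached a ratio of 0.479, and *Etfa*, which reached 0.464. With 5 libraries, leaving out Ctrl shRNA replicate 2, it lay within 2-fold for all 10, from a lowest bound of 0.720 (*Acadvl*) to a highest of 1.10 (*Acadl*).

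Ctrl shRNA replicate 2 did not shift these genes in a single direction. Relative to the mean of Ctrl shRNA replicates 1 and 3, it was higher for 7 of the 10, most for *Etfa* (0.79 on the log2 scale) and *Hadhb* (0.76), then *Acaa2* (0.39), *Acadm* (0.32) and *Etfdh* (0.32). It was lower for *Acadvl* (-0.33), *Cpt1a* (-0.24) and *Hadha* (-0.15). The absolute difference was above 0.5 in 2 of the 10 genes, and in 39.1% of all genes tested. Its median was 0.32 over the 10 genes and 0.35 over all genes, whereas between Ctrl shRNA replicates 1 and 3 it was 0.10 and 0.16. Against the same reference, the median of the 10 genes was -0.12, -0.08 and -0.16 in knockdown replicates 1, 2 and 3.

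**Figure D3:**
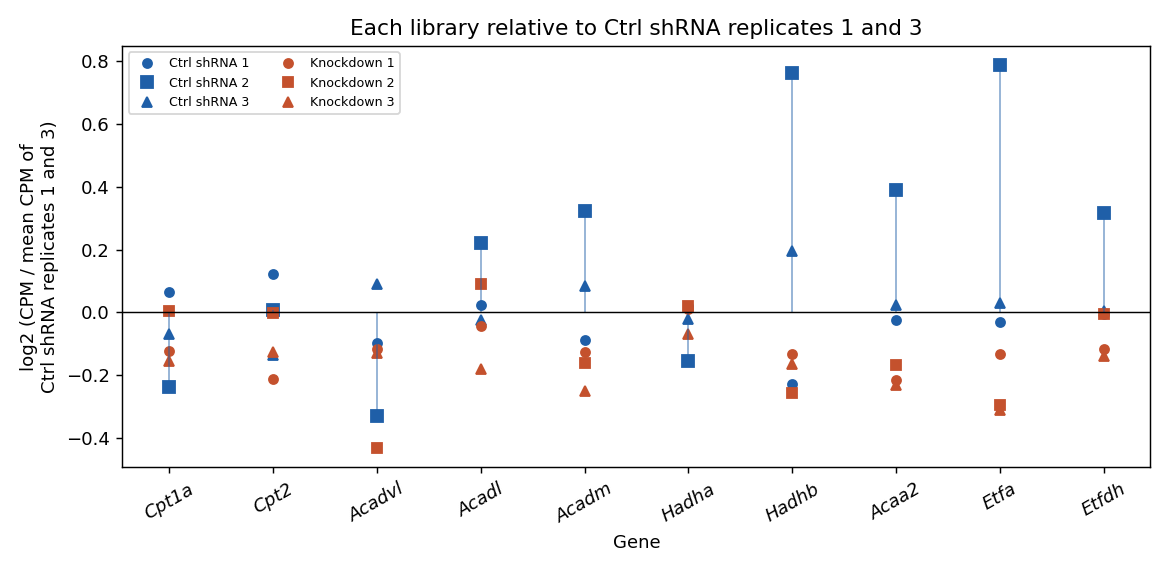
log2 ratio of each library's CPM to the mean of Ctrl shRNA replicates 1 and 3, gene by gene, with Ctrl shRNA in blue and knockdown in orange and a thin line to Ctrl shRNA replicate 2. That library ranges from -0.33 (*Acadvl*) to 0.79 (*Etfa*), while all knockdown points lie between -0.43 and 0.09.

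Genes acting around these enzymes were grouped into lists. The wider list of mitochondrial β-oxidation (19 genes, all tested), with the carnitine carrier *Slc25a20*, the hydratase *Echs1* and the isomerases *Eci1* and *Eci2*, had 0 genes called by edgeR with all libraries or without Ctrl shRNA replicate 2. Its median log2 fold change was -0.12 and -0.10 in these fits, with 14 and 12 values below 0. Its most abundant gene, the acetoacetyl-CoA thiolase *Acat1*, had 143, 213 and 163 CPM in controls and 141, 132 and 134 CPM in knockdown cells, and a log2 fold change of -0.18 without Ctrl shRNA replicate 2 (adjusted p = 0.219, edgeR). limma with sample quality weights called 2 genes of the list lower, *Acat1* (adjusted p = 0.0457) and *Decr1*, the dienoyl-CoA reductase (adjusted p = 0.0365), of which the latter is named here after its values were seen. In that fit 6.34% of all genes were called lower, and DESeq2 called 0 genes of the list (adjusted p = 0.304 for *Acat1* and 0.190 for *Decr1*). Peroxisomal β-oxidation (16 of 18 genes tested) also had 0 called in either edgeR fit, and medians of -0.08 and -0.17. With limma's sample quality weights 3 of its genes, named after their values were seen, were called lower, *Ech1*, *Phyh* and *Scp2* (adjusted p = 0.0290, 0.0301 and 0.0311). All 3 were highest in Ctrl shRNA replicate 2, and DESeq2 called 0 genes of the list.

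Genes that supply or regulate the pathway were examined in the same fits. Of the uptake and activation list (14 of 21 tested), edgeR called 0, with medians of 0.04 and -0.01. The most abundant gene of that list, *Dbi*, which binds acyl-CoA, had 1239 CPM in Ctrl shRNA replicate 2 against 117 to 323 CPM in the other libraries. *Acsl5*, a long-chain acyl-CoA synthetase named here after its values were seen, had 101, 94.7 and 102 CPM in controls and 129, 132 and 122 CPM in knockdown cells. It was called higher by DESeq2 (adjusted p = 0.0158) and by limma with sample quality weights (adjusted p = 0.00844), and just missed the threshold without Ctrl shRNA replicate 2 (log2 fold change 0.33, adjusted p = 0.0505, edgeR). The list of PPAR and ERR regulators and targets (14 of 17 tested) had 0 called by edgeR and medians of 0.06 and -0.09, and its most abundant gene, *Ucp2*, stood at 397 to 419 CPM in controls and 362 to 480 CPM in knockdown cells. The nuclear receptor gene *Pparg* of that list, named after its values were seen, was called lower with limma's sample quality weights (adjusted p = 0.0402) and not by DESeq2 (adjusted p = 0.258). Of the malonyl-CoA and AMPK genes (all 10 tested) edgeR called 0, with medians of 0.03 in both fits. *Acaca*, which makes malonyl-CoA, was the most abundant of them, at 147 to 159 CPM in controls and 179 to 200 CPM in knockdown cells (log2 fold change 0.28 without Ctrl shRNA replicate 2, adjusted p = 0.105, edgeR). *Acaca* was called higher with limma's sample quality weights (adjusted p = 0.00988) and not by DESeq2 (adjusted p = 0.0713).

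Of these lipid lists, edgeR called 2 genes, both without Ctrl shRNA replicate 2. *Mgll*, the monoacylglycerol lipase of the lipolysis list (6 of 7 tested), fell from 52.1, 51.8 and 52.2 CPM in controls to 41.7, 37.2 and 40.7 CPM, at a log2 difference of -0.40 (SE 0.08, adjusted p = 0.0454, edgeR), and DESeq2 called it with all libraries (adjusted p = 0.0180). Its adjusted p with all libraries in edgeR was 0.199, and with limma's sample quality weights 0.00989. *Bdh1*, the hydroxybutyrate dehydrogenase of the ketone body list (4 of 5 tested), rose from 6.40, 8.10 and 6.41 CPM to 11.1, 9.86 and 9.31 CPM, at a log2 difference of 0.64 (SE 0.13, adjusted p = 0.0497, edgeR) in that fit and 0.53 with all libraries (adjusted p = 0.312), where limma's sample quality weights gave an adjusted p of 0.0130 and DESeq2 gave 0.0870. The lipolysis list had medians of 0.02 and -0.08 and was led in abundance by *Pnpla2*, the triglyceride lipase (0.22 without Ctrl shRNA replicate 2, adjusted p = 0.376, edgeR). The ketone body list had medians of -0.04 and 0.01 and was led by *Oxct1* (0.07, adjusted p = 0.632). For these lists, 1.11% of all genes were called higher and 0.675% lower without Ctrl shRNA replicate 2.

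**Figure D4:**
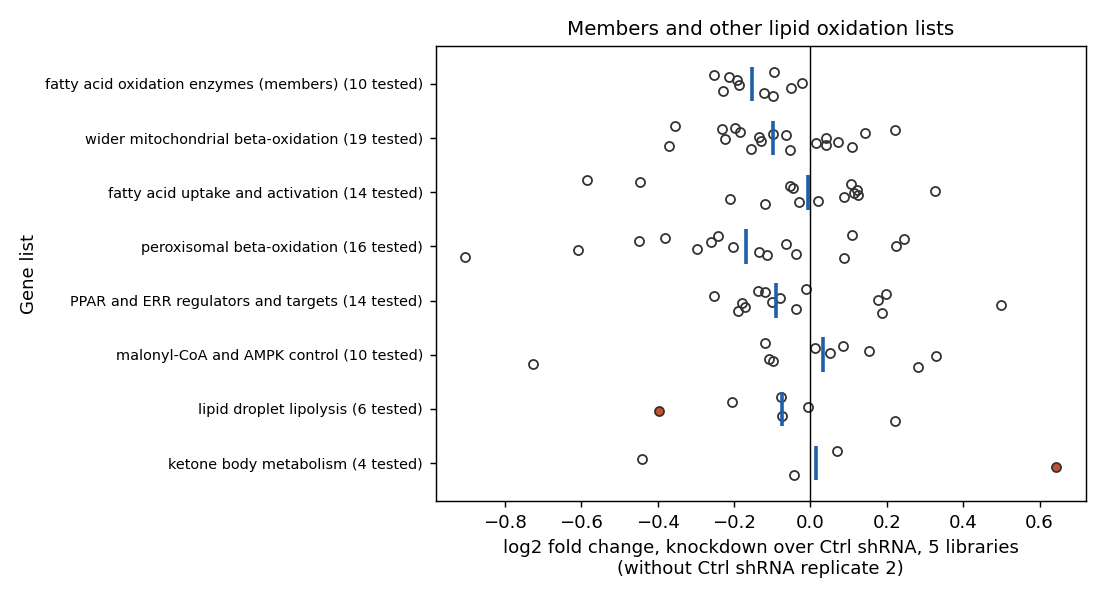
Fitted log2 fold change without Ctrl shRNA replicate 2 (edgeR) for each tested gene of the 10 enzymes and of 7 other lipid lists, with filled points for adjusted p under 0.05 and a blue bar at the list median. The 10 enzymes all lie between -0.25 and -0.02, and the filled points are *Mgll* (-0.40) and *Bdh1* (0.64).

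Cell type markers were examined in the same fits. In the epithelial and alveolar type 2 list (6 genes), *Sftpc*, which encodes surfactant protein C, had 44.1, 97.3 and 50.9 CPM in controls and 35.9, 28.5 and 27.2 CPM in knockdown cells. It was called lower without Ctrl shRNA replicate 2 (log2 fold change -0.65, adjusted p = 0.0438, edgeR) and not with all libraries (adjusted p = 0.315). The summed CPM of the list was 658 to 698 in controls and 573 to 622 in knockdown cells, and *Nkx2-1*, its most abundant gene, had a log2 fold change of -0.23 without Ctrl shRNA replicate 2 (adjusted p = 0.128). Summed leukocyte markers (4 genes) stood at 1.65 to 1.92 CPM in controls and 2.41 to 2.76 CPM in knockdown cells, nearly all from *Cd68*. Endothelial markers (3 genes) summed to at most 0.697 CPM in controls and 0.989 CPM in knockdown cells, with no gene above 18 counts in a library. The sum of the fibroblast markers (4 genes) was 346, 1234 and 377 CPM in controls and 317 to 345 CPM in knockdown cells, and *Dcn* was its most abundant gene. In leukocyte, endothelial and fibroblast lists 0 genes were called by edgeR in either fit. With limma's sample quality weights *Sftpc* and *Nkx2-1* were called lower (adjusted p = 0.0184 and 0.0294) and the fibroblast marker *Pdgfra*, named after its values were seen, higher (adjusted p = 0.0312), while DESeq2 called 0 of these 3 genes (adjusted p = 0.0599, 0.245 and 0.119). The part of these markers in the values of the fatty acid oxidation genes was not tested.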

How the data were processed

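RNA-seq of 6 libraries of MLE12 cells was used, grouped by the sample labels, with 0 columns left unused. The authors deposited raw read counts per gene and FPKM, which equal counts divided by gene length and by a library size that was 0.716 to 1.08 times the total count. Their processing notes name HISAT2 2.0.5, StringTie 1.3.3b, featureCounts 1.5.0-p3 and mm10 (GRCm38). Strand use is not stated. Of 54409 genes found in GENCODE M21, 98.3% had identical coordinates.

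Counts were filtered with filterByExpr, scaled by TMM and compared in edgeR 4.0.16 (R 4.3.3, quasi-likelihood), adjusted by Benjamini-Hochberg over all genes. Alternatives used DESeq2 1.42.0 and limma 3.58.1, the latter also on log2(FPKM + 1) and log2(FPKM + 0.1) of genes with at least 0.5 FPKM in 3 libraries. Single values were compared by exact permutation. Figures were drawn with matplotlib 3.10.9 in Python 3.11.15.

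The members and lists were chosen with earlier results of these data known. The lists came from general knowledge. The text names all 10 members, both targeted genes, list genes past the threshold with or without Ctrl shRNA replicate 2, the most abundant gene of each list (1 such gene is not reported here), and genes sharing exonic bases with a member. The fits were tested on simulated data. Replicates differed by more than sampling noise, with a chi-square per degree of freedom of 6.13 to 503.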

Additional observations from a re-analysis of the deposited data

How the results depend on the processing

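The count of called enzymes was 0 in edgeR with all libraries (2 at an unadjusted p under 0.05, against 14.1% of all genes). It was 0 in all 16 alternatives except limma with sample quality weights, which called 1, *Acaa2*, lower. That fit called 15% of all genes, 6.34% lower. Their median log2 fold change was -0.16, from -0.23 to -0.15 when single libraries were left out, and 0.016 with total count scaling of all libraries. Of 160 gene values, 149 kept their direction. With total count scaling *Cpt1a*, *Cpt2*, *Acadvl*, *Acadl* and *Etfdh* turned positive (0.14, 0.060, 0.031, 0.075 and 0.0019). The median of all genes was 0.16 in that fit. Leaving out single libraries gave *Cpt1a* values from -0.098 to 0.065 and *Hadha* values from -0.023 to 0.077. *Cpt1a* was positive without Ctrl shRNA replicate 1, knockdown replicate 1 and knockdown replicate 3. *Hadha* turned negative without Ctrl shRNA replicate 2 in edgeR, in DESeq2 (-0.016) and with total count scaling (-0.010), the last 2 being fits chosen after seeing the data.

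Over all genes, 9 were higher and 1 lower with edgeR and all libraries. The counts were 1 and 0 with total count scaling, 12 and 3 with no count filter, 218 and 135 with DESeq2, 1327 and 971 with sample quality weights, and 8 and 3 with limma on either FPKM scale. Omitting single libraries gave 0 to 175 higher and 0 to 106 lower genes, the largest without Ctrl shRNA replicate 2. That omission together with DESeq2 gave 490 and 330, and with total count scaling 178 and 105. With the replicate number as a block, edgeR called 0 higher and 0 lower genes (687 and 446 at an unadjusted p under 0.05) and 0 of the enzymes (1 at an unadjusted p under 0.05). Deviations of same-numbered samples from their group means correlated at -0.15, -0.09 and 0.04 across genes, and those of differently numbered samples at -0.04 to 0.15. The deviations within a group constrain each other, and Ctrl shRNA replicate 2 stood apart from the other controls. These values therefore cannot decide whether equal numbers mark paired samples, which the labels do not say. Library totals were similar, and the biological coefficient of variation in edgeR was 0.263 with all libraries and 0.102 without Ctrl shRNA replicate 2.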
